A study of Mus musculus with 6 samples.

Results

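Semaphorins and their plexin receptors, and ephrins and their Eph receptors, were followed in lungs of balb/c mice that had received K7M2 cells, taken on day 14 (D14) or day 0 (D0) of orthotopic implantation. K7M2 is an established osteosarcoma line of mice, known for metastasis to lung. Members were the lines of the deposited count table whose symbols are Sema3 to Sema7, Plxna to Plxnd, Epha, Ephb, Efna or Efnb followed by the letter or number of a family gene, which gave 50 of 29753 usable lines: 20 semaphorins, 9 plexins, 8 ephrins and 13 Eph receptors. Each day had 3 bulk RNA libraries, numbered as biological replicates, and all came from balb/c mice. The labels do not say whether a library is 1 mouse, so the p-values cover the variation among libraries, which may be technical in part. There was no D14 group without implanted cells, so effects of the tumour, the procedure, age and collection day cannot be told apart.

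Semaphorins are secreted, membrane-spanning or lipid-anchored proteins that bind plexins, and the secreted class 3 mostly needs a neuropilin as co-receptor. Plexins act through GTPases on the cytoskeleton and on integrin adhesion. Ephrins are held on the cell surface, the A class by a lipid anchor and the B class by a transmembrane segment, and signal in both directions with Eph receptor tyrosine kinases on neighbouring cells. Both systems steer axons, and in the lung they are known for vessel patterning, arterial and venous identity, airway branching and leukocyte traffic.

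The libraries held 14878101 to 17385006 counts. The labels' extraction text names macrophages grown from bone marrow, whereas the tissue label gives lungs. Sftpc, the surfactant protein of type 2 alveolar cells, stood between 12446 and 34630 CPM (counts per 1000000 of library size, scaled with TMM factors) in all 6 libraries, and the neuron and glia markers summed to between 8.36 and 11.9 CPM. Bglap and Sp7, markers of the osteoblast lineage from which K7M2 derives, were at 0 in all D0 libraries and reached at most 0.116 and 0.128 CPM at D14. Runx2, Alpl and Phex, the other genes of that list in the table, were present on both days, with positive log2 fold changes of 0.14 (Runx2), 0.34 (Alpl) and 0.66 (Phex), overlapping ranges and no unadjusted p under 0.05. D0 replicate 3 stood apart. Haemoglobin took 4.98% of its counts, against 0.985% to 2.77% in the other libraries, and its 10 endothelial markers summed to 2895 CPM, against 5761 to 5857 CPM at D14 and 3765 and 5232 CPM in the other D0 libraries. It was the lowest of the 6 libraries for 20 of the 46 tested members (43.5%, against 29.8% of all tested genes). In bulk lung, fewer cells of a type and less RNA per cell cannot be told apart.

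Of the 50 members, 46 passed the filter on low counts and were tested among 17686 genes with edgeR's quasi-likelihood test. None had a p under 0.05 after Benjamini-Hochberg adjustment over all tested genes (0 of 46), where 0.0339% of all tested genes did. At an unadjusted p under 0.05 stood 7 members that were higher at D14 (15.2%, against 5.48% of all tested genes) and 4 that were lower (8.70%, against 7.09%). The D14 libraries all lay above the D0 libraries for 11 members (23.9%, against 10.9% of all tested genes) and all below them for 4 (8.70%, against 10.7%). The median log2 fold change of the tested members was 0.04, close to the −0.03 of all tested genes. These counts moved with single libraries: the 7 higher members became 12 on leaving out D0 replicate 1 and 4 on leaving out D14 replicate 2, and the 4 lower members became 2 on leaving out replicate 1 or replicate 3 of D14, and 1 on leaving out replicate 2. The share of all tested genes was not computed for these fits, so they show only how the counts depend on single libraries. DESeq2 on the same counts called 3 members, Sema7a, Sema4c and Efnb2, and 1.54% of all genes that it tested.

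**Figure D1:**
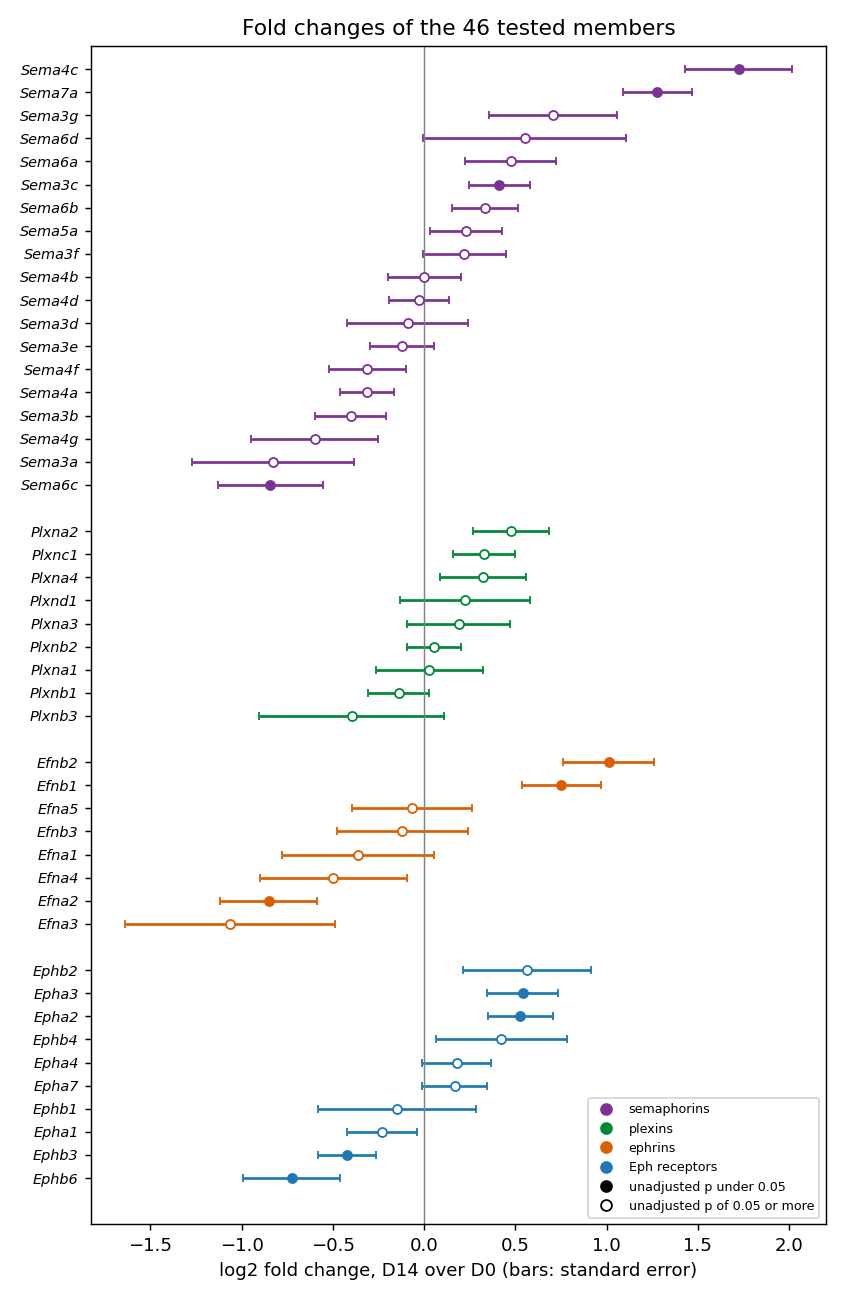
Log2 fold change of each tested member, D14 over D0, with its standard error from edgeR, ordered within semaphorins, plexins, ephrins and Eph receptors. Filled points have an unadjusted p under 0.05: 7 lie to the right of 0 and 4 to the left. No plexin is among them (0 of 9, against 12.6% of all tested genes).

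Sema7a, a semaphorin held on the membrane by a lipid anchor that binds integrin beta 1 and plexin C1, had the smallest p of all members. Its level was 142, 151 and 165 CPM in the D14 libraries, against 77.7, 61.4 and 49.9996 CPM in the D0 libraries. Every D14 library was above every D0 library, and the gap between the days was wider than the spread within either. The log2 fold change was 1.28 (SE 0.19; unadjusted p = 0.000188, adjusted p = 0.113, edgeR quasi-likelihood test), and leaving out 1 library at a time gave 1.14 to 1.46. With DESeq2 the adjusted p was 1.10e-06. Over all alternatives to the reported fit, the adjusted p ran from 1.10e-06 to 0.449.

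Sema4c, a transmembrane semaphorin that binds plexin B2, had the largest log2 fold change of the members, 1.72 (SE 0.29; unadjusted p = 0.000464, adjusted p = 0.189, edgeR quasi-likelihood test). The D14 libraries held 129.6, 61.0 and 101 CPM, against 28.4, 24.0 and 36.1 CPM in the D0 libraries. The days did not overlap, but the D14 libraries differed from each other, and replicate 2, the lowest, was nearer to D0 replicate 3 than to D14 replicate 3. Without D14 replicate 1 the log2 fold change was 1.47 and without D14 replicate 2 it was 1.97. DESeq2 gave an adjusted p of 1.68e-05, and all alternatives together ran from that value to 0.537. An annotated transcript on the opposite strand, D430040D24Rik, overlaps Sema4c and had 65 to 144 counts per library, against 376 to 2238 for Sema4c. Whether strand was used in counting is not given in the sources used here.

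Efnb2 encodes ephrin-B2, the ligand that marks arterial endothelium. It had 523, 481 and 543 CPM in the D14 libraries, against 337, 259 and 171 CPM in the D0 libraries. All D14 libraries were above all D0 libraries, and the D0 libraries were spread more widely, with D0 replicate 3 lowest. The log2 fold change was 1.01 (SE 0.25; unadjusted p = 0.00405, adjusted p = 0.347, edgeR quasi-likelihood test). It was 0.79 with D0 replicate 3 left out and 1.27 with D0 replicate 1 left out, and DESeq2 gave an adjusted p of 0.0116, with a range over all alternatives up to 0.725. Efnb1 encodes ephrin-B1, a second transmembrane ephrin. Its D14 libraries, at 269, 225 and 248 CPM, also all lay above its D0 libraries, at 186, 147 and 107 CPM. Its log2 fold change was 0.75 (SE 0.22; unadjusted p = 0.00920, adjusted p = 0.349), and 0.57 without D0 replicate 3.

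In GRCm38 coordinates from GENCODE, Sema7a lies on chromosome 9 from 57940112 to 57962865 on the plus strand and Sema4c on chromosome 1 from 36548639 to 36558349 on the minus strand. Efnb2 lies on chromosome 8 from 8617434 to 8661242 on the minus strand and Efnb1 on chromosome X from 99136130 to 99148991 on the plus strand. The promoter windows of these 4 genes are shown because they led the members that were higher at D14. Each runs from 250 bases before to 50 bases after a RefSeq start site (build GRCm38.p6), 5′ to 3′ on the gene's strand. The windows are chr9:57939862-57940161 (plus strand) for Sema7a, chr1:36558332-36558631 (minus strand) for the first of 2 Sema4c starts in the table, chr8:8661193-8661492 (minus strand) for Efnb2 and chrX:99135811-99136110 (plus strand) for Efnb1. Capitals mark matches on either strand to any of 7 motifs. The search was for GGGCGG as the GC box of Sp1 factors, CCAAT as the box of that name, TATAAA as the TATA box, TGANTCA as the AP-1 site, TGACGTCA as the cAMP response element, CACGTG as the E-box and TGGGAA as the core of the RBPJ site.
Sema7a: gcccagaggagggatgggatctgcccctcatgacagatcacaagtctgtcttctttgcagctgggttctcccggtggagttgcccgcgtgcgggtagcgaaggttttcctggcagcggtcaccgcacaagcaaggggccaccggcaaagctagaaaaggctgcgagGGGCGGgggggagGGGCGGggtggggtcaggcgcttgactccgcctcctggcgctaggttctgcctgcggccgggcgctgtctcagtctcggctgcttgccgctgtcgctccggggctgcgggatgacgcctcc
Sema4c: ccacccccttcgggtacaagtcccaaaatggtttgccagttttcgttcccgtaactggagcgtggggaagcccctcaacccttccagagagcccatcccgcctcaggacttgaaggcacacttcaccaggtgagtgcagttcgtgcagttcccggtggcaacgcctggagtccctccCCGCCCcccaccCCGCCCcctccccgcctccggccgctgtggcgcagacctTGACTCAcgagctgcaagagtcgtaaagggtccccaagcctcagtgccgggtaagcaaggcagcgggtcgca
Efnb2: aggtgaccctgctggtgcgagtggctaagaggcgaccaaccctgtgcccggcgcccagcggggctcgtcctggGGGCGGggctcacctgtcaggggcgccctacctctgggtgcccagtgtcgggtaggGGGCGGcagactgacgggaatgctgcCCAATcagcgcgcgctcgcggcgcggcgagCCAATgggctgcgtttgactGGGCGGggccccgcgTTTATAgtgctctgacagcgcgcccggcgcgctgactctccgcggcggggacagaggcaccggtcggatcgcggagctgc
Efnb1: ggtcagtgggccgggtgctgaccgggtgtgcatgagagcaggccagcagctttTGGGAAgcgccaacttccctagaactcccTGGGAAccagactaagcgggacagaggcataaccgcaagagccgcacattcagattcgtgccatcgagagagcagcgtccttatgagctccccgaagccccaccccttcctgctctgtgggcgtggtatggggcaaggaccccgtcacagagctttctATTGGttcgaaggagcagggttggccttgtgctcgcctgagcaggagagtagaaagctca

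The Sema7a window held 2 GC boxes, beginning 84 and 71 bases before the start, and no other match. The Sema4c window shown held 2 GC boxes and an AP-1 match that began 22 bases before the start. The window of the other Sema4c start, not shown, had GC boxes beginning 114 and 58 bases before the start and at base 8. It had no AP-1 match. Efnb2 had 3 GC boxes, 2 CCAAT boxes and a TATA box match on the opposite strand beginning 30 bases before the start. Efnb1 had no GC box, 2 RBPJ core matches beginning 197 and 168 bases before the start, and 1 CCAAT box on the opposite strand. No motif was shared by the 4 windows. Among all 32851 promoter windows of the table, 35.7% held a GC box, 37.4% a CCAAT box, 25.6% an RBPJ core, 13.6% a TATA box, 7.81% an AP-1 match, 7.15% an E-box and 1.79% a cAMP response element. No 2 matches shared bases in the windows shown. Promoter windows were found for 44 of the 50 members, the others being Efnb3, Plxna1, Plxna4, Sema3b, Sema3f and Sema6a.

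**Figure D2:**
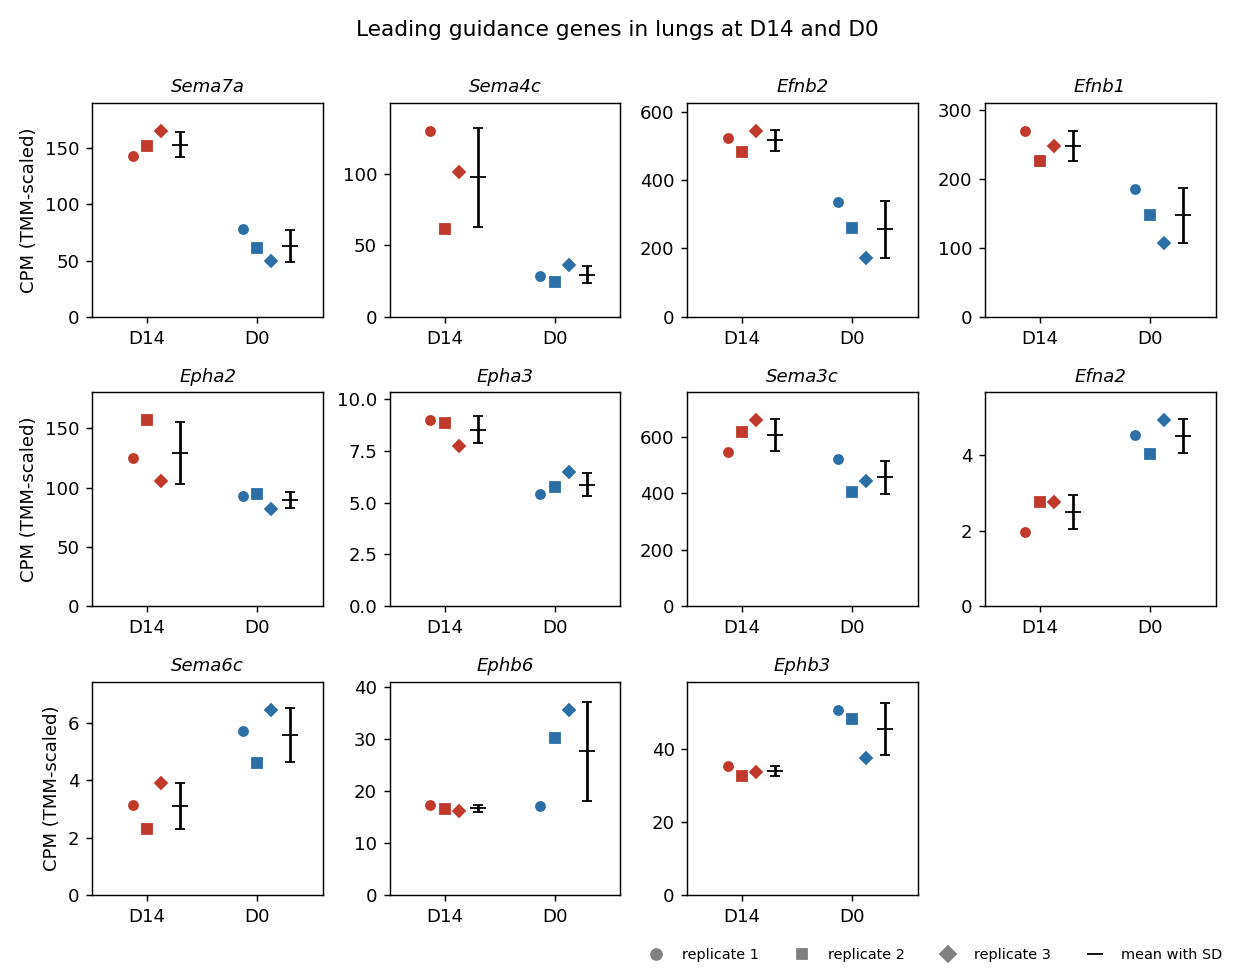
CPM of the 11 members with an unadjusted p under 0.05 in each library, D14 in red and D0 in blue, with symbols for the replicate number and the mean with SD in black. Each axis starts at 0. The days are apart for every panel but Ephb6, where D0 replicate 1, at 17.1 CPM, lies among the D14 libraries.

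Among the secreted class 3 semaphorins, Sema3c, which acts through neuropilins and plexins in outflow tract and lung development, had the highest level of all members when divided by the longest annotated transcript. Its level per kilobase of the longest annotated transcript was 110.4 ± 10.3 CPM per kilobase at D14 and 83.0 ± 10.7 at D0 (SD, n = 3 each). In CPM it had 546, 615 and 658 at D14, against 519, 403 and 444 at D0, without overlap but with D14 replicate 1 close to D0 replicate 1. The log2 fold change was 0.41 (SE 0.17; unadjusted p = 0.0417, adjusted p = 0.387, edgeR quasi-likelihood test). Sema3g, a class 3 semaphorin of arterial endothelium that binds neuropilin 2, had 397, 319 and 340 CPM at D14, against 339, 189 and 119 CPM at D0. Its days overlapped (log2 fold change 0.71, SE 0.35; adjusted p = 0.430).

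No other class 3 member had an unadjusted p under 0.05. Sema3a, the repellent ligand of neuropilin 1, had 32.8, 56.6 and 34.9 CPM at D14, against 31.5, 115 and 74.3 CPM at D0. Its D0 libraries spanned the whole D14 range (log2 fold change −0.83, SE 0.44; adjusted p = 0.456). Sema3e, which binds plexin D1 without a neuropilin, stood at −0.12 (SE 0.18), Sema3f, a neuropilin 2 ligand, at 0.22 (SE 0.23), Sema3d at −0.09 (SE 0.33) and Sema3b at −0.40 (SE 0.19) in log2 fold change. Of the 7 class 3 genes, 3 had a positive and 4 a negative log2 fold change.

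Apart from Sema4c, the class 4 semaphorins, transmembrane ligands with roles in immune cells and epithelium, did not pass an unadjusted p of 0.05. Sema4a, which acts on T cells, had 48.8, 47.5 and 38.2 CPM at D14, against 55.4, 54.0 and 57.7 CPM at D0. All D14 values were below the D0 values, and the log2 fold change was −0.31 (SE 0.15; unadjusted p = 0.0686, adjusted p = 0.420). Sema4d, a ligand of plexin B1 and of the B cell protein CD72, stood at −0.03 (SE 0.17), Sema4b at 0.00 (SE 0.20), Sema4f at −0.31 (SE 0.21) and Sema4g at −0.60 (SE 0.35).

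In classes 5 and 6, also transmembrane, Sema6c was the 1 member with an unadjusted p under 0.05. It had 3.13, 2.30 and 3.91 CPM at D14, against 5.70, 4.60 and 6.46 CPM at D0, without overlap, on 36 to 98 counts per library. Its log2 fold change was −0.84 (SE 0.29; unadjusted p = 0.0200, adjusted p = 0.364). Sema6a, a ligand of plexins A2 and A4, was the most abundant of class 6, with 76.6, 75.3 and 86.2 CPM at D14, against 75.6, 59.0 and 36.8 CPM at D0. Its days overlapped by a small margin, and the log2 fold change was 0.47 (SE 0.25; adjusted p = 0.452). For Sema6a it was 0.24 with D0 replicate 3 left out and 0.73 with D0 replicate 1 left out. Sema6d, a plexin A1 ligand, had 44.6, 43.0 and 88.4 CPM at D14, against 65.8, 41.8 and 12.4 CPM at D0, so that its spread within each day exceeded the difference between them. Sema5a, the 1 tested class 5 member, had 36.6, 42.6 and 49.2 CPM at D14, against 30.2, 45.1 and 34.4 CPM at D0. Its days overlapped, and the log2 fold change of 0.23 (SE 0.20) was 0.11 with D0 replicate 1 left out and 0.41 with D0 replicate 2 left out. Sema6b had ranges apart, at 0.33 in log2 fold change (SE 0.18; adjusted p = 0.458).

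The plexins, the receptors of these ligands, held no member at an unadjusted p under 0.05 (0 of 9, against 12.6% of all tested genes). With so few plexins this count does not set them apart from other genes. Their log2 fold changes ran from −0.40 to 0.47. Their median, 0.19, was −0.02 without D0 replicate 3. Plxnb2, the receptor of Sema4c, had 226, 249 and 223 CPM at D14, against 231, 240.4 and 201 CPM at D0. The days coincided (log2 fold change 0.05, SE 0.15; −0.02 without scaling factors or without D0 replicate 3). Plxnd1, the endothelial receptor of Sema3e, had 221, 225 and 196 CPM at D14, against 277, 182 and 91.0 CPM at D0. Plxna1, a shared receptor of class 3 and class 6 semaphorins, had 281, 279 and 267 CPM at D14, against 379.6, 274 and 156 CPM at D0. For both, the D14 libraries lay close together inside a wide D0 range. The log2 fold change of Plxnd1 was 0.22 (SE 0.36) and −0.10 without D0 replicate 3. For Plxna1 it was 0.03 (SE 0.30), −0.24 without D0 replicate 3 and −0.06 without scaling factors. Plxnc1, a receptor of Sema7a, had 40.4, 40.0 and 40.1 CPM at D14, against 38.4, 31.7 and 25.9 CPM at D0. Its ranges were apart by a small margin (log2 fold change 0.33, SE 0.17; adjusted p = 0.446). Plxna2 was likewise apart, at 0.47 (SE 0.21; adjusted p = 0.404).

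**Figure D3:**
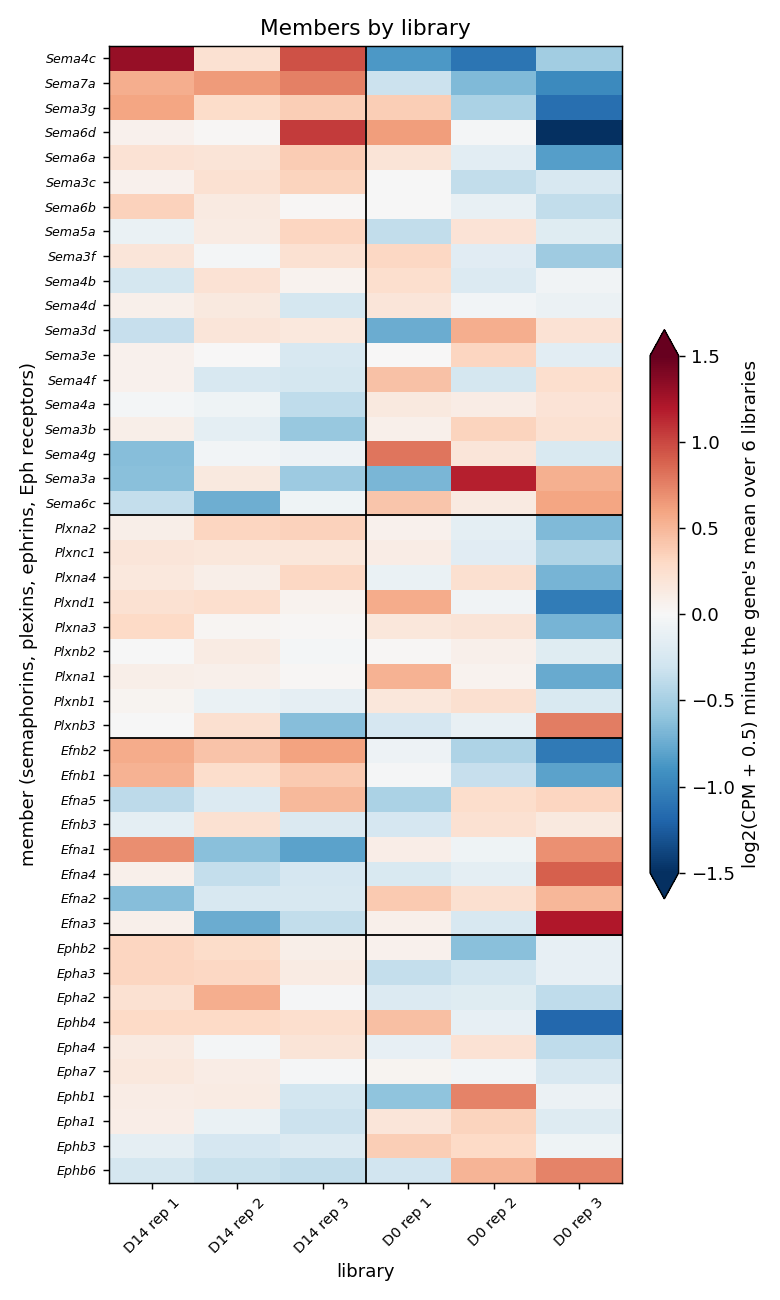
Heat map of log2(CPM + 0.5) minus the gene's mean over the 6 libraries, for the 46 tested members in 4 blocks (semaphorins, plexins, ephrins, Eph receptors), D14 libraries left of D0 libraries. The D0 replicate 3 column is the lowest of the 6 for 20 members, most of the plexins among them, and the highest for 7, with the A class ephrins Efna3 and Efna4 among those.

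All 5 A class ephrins had a negative log2 fold change, with a median of −0.50, where 46.9% of all tested genes had a positive one. Only Efna2 among these had an unadjusted p under 0.05. The 3 B class ephrins had a median of 0.75. Over the 8 ephrins the median was −0.24, and −0.01 without D0 replicate 3. No test compared the classes, and D0 replicate 3 was the highest D0 library for all 5 of the A class. Efna2, a ligand of EphA receptors, had 1.97, 2.74 and 2.76 CPM at D14, against 4.54, 4.03 and 4.92 CPM at D0. Its ranges were apart (log2 fold change −0.85, SE 0.26; unadjusted p = 0.0134, adjusted p = 0.364, edgeR quasi-likelihood test), on 34 to 78 counts per library. Efna1, the tumour necrosis factor inducible ligand of EphA2 and the most abundant of its class for its length, had 92.8, 36.9 and 32.7 CPM at D14, against 61.4, 54.7 and 92.5 CPM at D0. D14 replicate 1 and D0 replicate 3 reached the same level, and the days overlapped. Its log2 fold change was −0.36 (SE 0.42). It was −0.99 without D14 replicate 1 and −0.10 without D14 replicate 3. Efna3 and Efna4 each had their highest value in D0 replicate 3, 3.65 and 6.32 CPM, against 0.574 to 1.40 and 2.36 to 3.36 CPM in the other libraries. Efna5 and Efnb3 stood at −0.07 (SE 0.33) and −0.12 (SE 0.36) in log2 fold change.

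Of the Eph receptors, Epha2 and Epha3 had higher means at D14, and Ephb3 and Ephb6 lower ones, at an unadjusted p under 0.05 but not past adjustment. Epha2, an epithelial and endothelial receptor of ephrin-A1, had 125, 157 and 106 CPM at D14, against 92.8, 94.2 and 82.1 CPM at D0. Its days were apart, and the log2 fold change was 0.53 (SE 0.18; unadjusted p = 0.0196, adjusted p = 0.364, edgeR quasi-likelihood test). Epha3, a receptor of ephrin-A5 found in stroma, had 8.98, 8.86 and 7.76 CPM at D14, against 5.41, 5.75 and 6.46 CPM at D0. Its log2 fold change was 0.54 (SE 0.19; unadjusted p = 0.0254, adjusted p = 0.364). Both sets of libraries were narrow for Epha3, and its value ranged only from 0.49 to 0.61 when 1 library was left out.

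Ephb3, a receptor of B class ephrins, had 35.5, 32.7 and 33.8 CPM at D14, against 50.8, 48.1 and 37.4 CPM at D0, without overlap (log2 fold change −0.42, SE 0.16; unadjusted p = 0.0312, adjusted p = 0.373). Ephb6, a receptor without kinase activity, had 17.4, 16.5 and 16.2 CPM at D14, against 17.1, 30.2 and 35.7 CPM at D0. The difference rested on D0 replicates 2 and 3, and D0 replicate 1 was at the D14 level (log2 fold change −0.73, SE 0.26; unadjusted p = 0.0268, adjusted p = 0.365). Ephb4, the ephrin-B2 receptor of venous endothelium, had 219, 219 and 213 CPM at D14, against 244, 163 and 78.7 CPM at D0. The D14 libraries lay close together while the D0 libraries spread around them, and the log2 fold change of 0.42 (SE 0.36) was 0.09 with D0 replicate 3 left out and 0.85 with D0 replicate 1 left out. The remaining tested receptors stood between −0.23 (Epha1) and 0.56 (Ephb2) in log2 fold change, with Ephb2 at no more than 2.20 CPM. Epha1 overlaps the abundant gene Zyx on the opposite strand, which had 1990 to 3108 counts per library.

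Members under 1 CPM in every library were Epha5, Epha8, Epha10 and Sema5b, the 4 that did not pass the filter. They had 4 to 9, 2 to 17, 0 to 2 and 0 to 6 counts per library. Where a library has no count, 3 counts there, or 0.174 to 0.211 CPM, would be the limit, for counting error only.

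Levels were compared between genes as CPM per kilobase of the longest annotated transcript. Over all libraries 18 members were above 10 CPM per kilobase, 22 between 1 and 10, and 10 below 1. At D14 the order began with Sema3c (110.4 ± 10.3) and Efnb2 (108 ± 6.61), which were within their spread, followed by Sema3g (77.5 ± 8.87) and Efnb1 (75.9 ± 6.72), likewise within their spread, and Sema3f (64.1 ± 6.04). At D0, Sema3c (83.0 ± 10.7) was followed by Sema3f (55.0 ± 16.2), Efnb2 (53.3 ± 17.3), Sema3g (47.5 ± 24.7) and Efnb1 (45.1 ± 12.03), of which the last 4 were within their spread (SD, n = 3 for each). Sema7a stood at 46.4 ± 3.43 CPM per kilobase at D14 and 19.1 ± 4.23 at D0, and Sema4c at 25.0 ± 8.86 at D14 and 7.58 ± 1.57 at D0. This order depends on the transcript length used. With the median in place of the longest, the means over all libraries put Plxna1 (386 CPM per kilobase) and Plxnd1 (366) ahead of Sema3c (343), with Efnb2 (137) at rank 8 and Sema3g (62.5) at rank 11. The median transcript was far shorter than the longest for the first 3. It had 706.5 bases against 9034 for Plxna1, 542 against 6907 for Plxnd1 and 1549 against 5491 for Sema3c. Plxnb2 leads the plexins with the longest transcript (35.2) but not with the median (275), and Ephb4 leads the Eph receptors with the longest (43.7) but stands below Epha2 with the median (48.7, against 146 for Epha2). Within the 12 classes the leading member was the same for 11, the exception being Sema4a ahead of Sema4c.

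**Figure D4:**
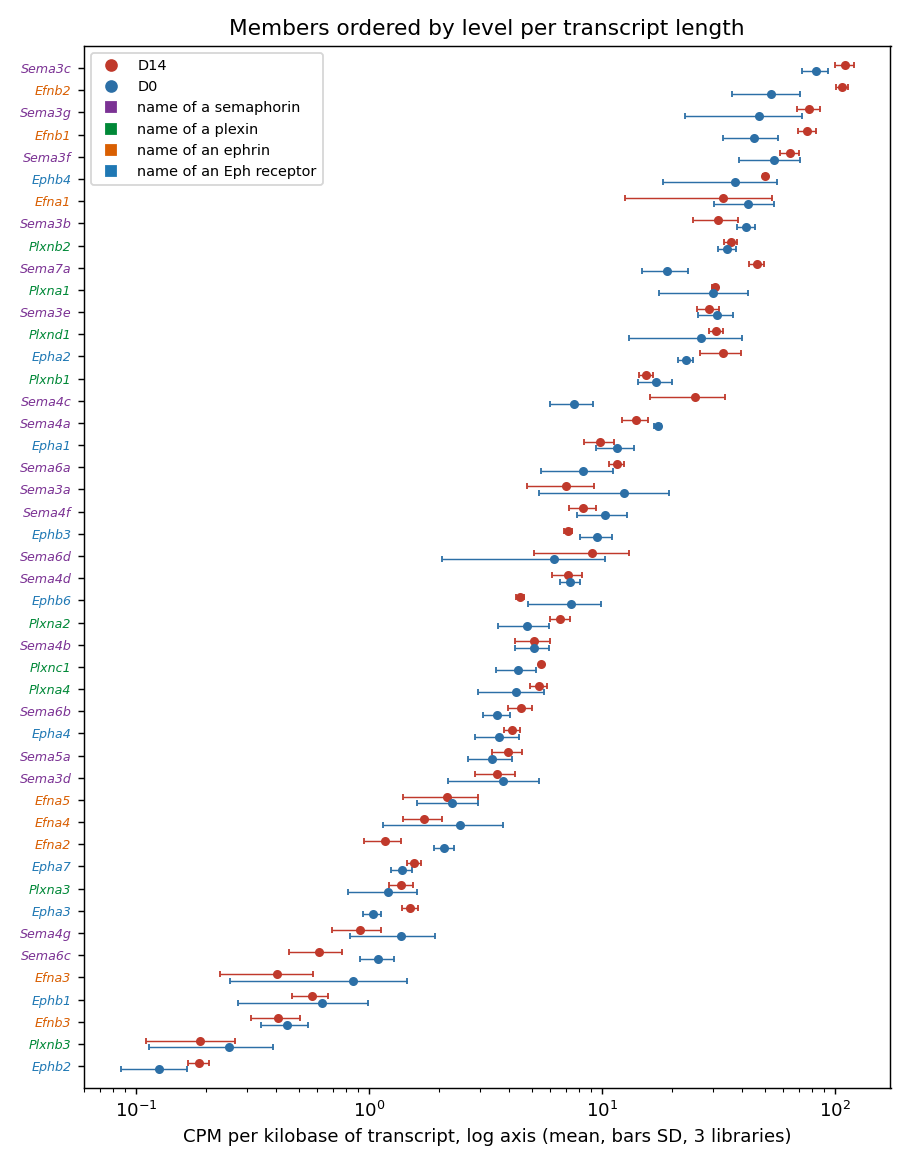
CPM per kilobase of the longest annotated transcript for the 46 tested members on a log axis, as points at the mean with bars for the SD of 3 libraries, D14 in red above D0 in blue, ordered by the mean over all 6 libraries and with names coloured by family. Sema3c and Efnb2 lead, and Sema7a and Sema4c are among the few whose D14 and D0 points are far apart.

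Ratios of a ligand's count to its receptor's within a library do not depend on scaling between libraries. For 9 ligand and receptor pairs, chosen after the values were seen, the D14 and D0 ratios did not overlap in 5. Those 5 had Sema7a, Sema4c, Efnb2 or Efnb1 as the ligand, which were themselves picked as higher at D14. The count is therefore no separate evidence, and no share over other gene pairs was computed. Sema7a to Plxnc1 had ratios of 3.52, 3.78 and 4.12 at D14, against 2.03, 1.94 and 1.93 at D0. The 3 D0 ratios were nearly equal, although the levels of both genes differed between those libraries. Sema7a to Itgb1, its integrin receptor chain, was 0.166 ± 0.0134 at D14 and 0.0915 ± 0.0146 at D0 (SD, n = 3 each). Sema4c to Plxnb2 had ratios of 0.573, 0.245 and 0.456 at D14, against 0.123, 0.0999 and 0.179 at D0. Efnb2 to Ephb4 had 2.39, 2.19 and 2.55 at D14, against 1.38, 1.59 and 2.18 at D0, so D0 replicate 3 nearly reached the D14 range. Efnb1 to Ephb3 was 7.27 ± 0.349 at D14 and 3.20 ± 0.410 at D0. With 3 libraries a day, an exact permutation test of a single ratio can reach no p below 0.1, so none was made. The ratios of Sema3c to Nrp1, Sema3e to Plxnd1, Sema3g to Nrp2 and Efna1 to Epha2 overlapped between the days.

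Several members are known endothelial genes, and the 10 endothelial markers were themselves higher at D14. They summed to 5802, 5761 and 5857 CPM at D14, against 5232, 3765 and 2895 CPM at D0. Of the 10 markers, 9 had a positive log2 fold change, against 46.9% of all tested genes. At an unadjusted p under 0.05, 5 were higher, against 5.48% of all tested genes, and none passed adjustment. Per 1000 endothelial marker counts, Efnb2 had 90.1, 83.5 and 92.8 counts at D14, against 64.4, 68.9 and 59.1 at D0. Sema7a had 24.6, 26.3 and 28.2 counts at D14, against 14.9, 16.3 and 17.3 at D0. Both remained apart on this scale, with log2 ratios of the means of 0.47 and 0.71. Whether either gene changed within endothelial cells was not tested. Sema4c had 22.3, 10.6 and 17.3 counts per 1000 at D14, against 5.42, 6.38 and 12.5 at D0, and Efnb1 had 46.4, 39.1 and 42.3 counts, against 35.5, 39.1 and 37.1. Both of these overlapped between the days, though Sema4c had a log2 ratio of 1.05. Over the 46 tested members, the D14 libraries all lay above the D0 libraries for 2 and all below them for 19 on this scale, against 11 above and 4 below in CPM. The share of all tested genes on this scale was not computed, so whether these counts are particular to the members cannot be said. With the marker sum higher at D14, a gene of equal CPM on both days would be lower at D14 on this scale. The log2 ratio of the mean marker sums themselves was 0.55. The 6 arterial markers summed to 331 to 417 CPM at D14 and 257 to 556 CPM at D0, and the venous ones to 169 to 196 CPM at D14 and 135 to 185 CPM at D0, with Ackr1 at or below 1.08 CPM.

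**Figure D5:**
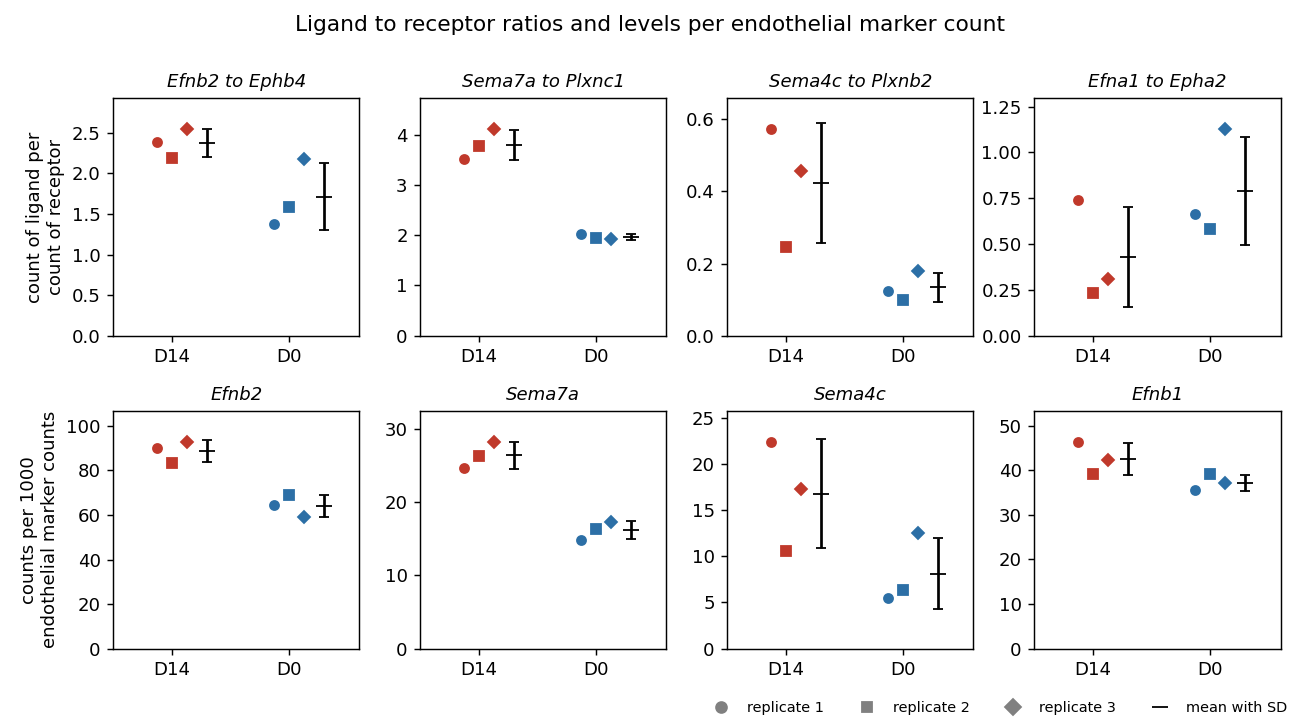
Top, counts of a ligand per count of its receptor in each library. Bottom, counts per 1000 endothelial marker counts (sum of 10 genes) for Efnb2, Sema7a, Sema4c and Efnb1; D14 in red, D0 in blue, mean with SD in black, axes from 0. Sema7a to Plxnc1 lies at 3.52 to 4.12 at D14 and 1.93 to 2.03 at D0, whereas Efna1 to Epha2 overlaps.

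Of 88 further genes of these pathways found in the table, 83 were tested, of which 12 were higher (14.5%, against 5.48% of all tested genes) and 6 lower (7.23%, against 7.09%) at D14 at an unadjusted p under 0.05. D0 replicate 3 was the lowest of the 3 D0 libraries for 52 of the 83 genes, and for 7266 of all 17686 tested genes. Crk, an adaptor that links tyrosine kinases such as Eph receptors to small GTPases, was the 1 that passed adjustment. It fell to 55.1, 60.6 and 58.5 CPM in the D14 libraries, against 181, 159.5 and 148 CPM in the D0 libraries. The days were far apart, and the log2 fold change was −1.49 (SE 0.14), with an adjusted p of 0.0290 by edgeR's quasi-likelihood test. The call on Crk was lost in 7 of 15 alternatives, among them 5 of the 6 that left out a library. With D0 replicate 3 left out, the adjusted p was 0.0106, and over all alternatives it ran from 1.38e-16 to 0.255.

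Nrp1 and Nrp2, the neuropilins, were above D0 in each D14 library. Nrp1 had 257, 258 and 277 CPM at D14, against 232, 190.1 and 76.2 CPM at D0. Its log2 fold change was 0.67 (SE 0.36), with an adjusted p of 0.458, and 0.33 when D0 replicate 3 was left out. Nrp2 had 117, 135 and 119 CPM at D14, against 98.8, 104 and 67.7 CPM at D0 (0.45, SE 0.19; adjusted p = 0.395), and 0.28 when D0 replicate 3 was left out. Of the 11 tested co-receptors and other receptors, 10 had a positive log2 fold change (90.9%, against 46.9% of all tested genes), and 3 were higher and 1 lower at an unadjusted p under 0.05 (27.3% and 9.09%, against 5.48% and 7.09% of all tested genes). D0 replicate 3 was the lowest D0 library for 8 of these 11. The lower one was Cd72, a Sema4d receptor of B cells, at −0.95 (SE 0.26; adjusted p = 0.347). All 5 B cell markers also had a negative log2 fold change, and their sum was 79.8 to 114 CPM at D14 and 128 to 216 CPM at D0. Their part in the Cd72 value was not tested. Plxdc2, a transmembrane protein with a plexin-like domain, stood at 0.43 (SE 0.15; adjusted p = 0.364).

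Among 20 tested plexin effectors, 2 were higher and 2 lower at an unadjusted p under 0.05 (10% each, against 5.48% and 7.09% of all tested genes). Rnd1, a GTPase that binds plexin A1 and B1, had 17.8, 18.2 and 13.1 CPM at D14, against 28.8, 27.3 and 23.2 CPM at D0, without overlap (log2 fold change −0.69, SE 0.19; adjusted p = 0.347). Of 30 tested Eph and ephrin effectors, 4 were higher (13.3%) and 3, Crk included, were lower at an unadjusted p under 0.05, against the same 5.48% and 7.09%. Grb7, an adaptor of tyrosine kinases, stood at −0.68 (SE 0.19; adjusted p = 0.347). The adaptors Nck2 and Sh2d3c were at 0.58 (SE 0.19) and at 0.77 (SE 0.25) in log2 fold change, and 0.364 was the adjusted p of both. Of 22 tested genes of the Slit, Robo and netrin guidance systems, 18 had a positive log2 fold change (81.8%, against 46.9% of all tested genes) and 3 were higher at an unadjusted p under 0.05 (13.6%, against 5.48%). D0 replicate 3 was the lowest D0 library for 15 of these 22. Slit2, the secreted ligand of Robo receptors, had 59.2, 72.7 and 70.8 CPM at D14, against 53.4, 48.2 and 47.9 CPM at D0 without overlap. The log2 fold change of Slit2 was 0.44 (SE 0.14), at an adjusted p of 0.364.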

How the data were processed

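RNA from lungs of 6 libraries, 3 at D14 and 3 at D0, was measured. The submitters' processing notes name HISAT2 2.1.0, StringTie 1.3.4b, CASAVA 1.8, edgeR and the build GRCm38 without saying what each did. The values deposited by the authors are estimated counts, 1 line for a gene symbol, with no depth scaling. Of 29757 lines, 4 were left out because a value was missing or not whole. Another 50 lines repeated a symbol, none of them a member, and the line with the highest total was taken for it. There were 0 columns beyond the 6 samples.

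Counts were rounded and tested with edgeR 4.0.16 in R 4.3.3 (TMM factors, default low count filter, robust quasi-likelihood F test, two-sided, no covariate, Benjamini-Hochberg adjustment over 17686 genes, threshold 0.05). Standard errors (SE) were taken as the absolute log2 fold change over the root of F. The procedure was tested on 3 simulated data sets with 200 changed genes each. It recovered 16.9% of the changes of 1 in log2 and 80.3% of those of 2. Of its 308 calls, 21 were false. Members, lists and pairs were chosen with earlier results of these data known.

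Members named in full were up to 12 per direction with an unadjusted p under 0.05 and the most abundant of each class per kilobase, and those under 1 CPM everywhere. The other members described were chosen after their values were seen. Of the further pathway genes, Nrp1, Nrp2 and the 8 with the smallest p were named. Positions and transcript lengths came from GENCODE vM21 (GRCm38), in which 98.1% of tested symbols were found, and promoter windows from RefSeq. Alternatives were DESeq2 1.42.0, limma-voom (limma 3.58.1), RLE factors, unscaled library sizes, leaving out the low count filter, at least 1 CPM in 3 libraries, no robust estimation, a replicate block, each library left out, the median transcript length and, chosen after seeing the data, summed repeated symbols.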

Additional observations from a re-analysis of the deposited data

How the results depend on the processing

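The 18 members named by rule kept their direction and their side of the threshold in 262 of 270 values under 15 alternatives. None of these members passed the threshold in the reported fit, so keeping their side meant staying uncalled, which is no measure of robustness. DESeq2 moved 3 past the threshold (Sema7a, Sema4c and Efnb2). Reversed values were those of Plxna1 (−0.0618) and Plxnb2 (−0.0198) with no scaling factors, and of Plxna1 (−0.244), Plxnb2 (−0.0167) and Plxnd1 (−0.0993) without D0 replicate 3; the cause was not tested. Leaving out 1 library gave up to 0.364 for Plxna1, 0.112 for Plxnb2 and 0.655 for Plxnd1. Genes past an adjusted p of 0.05 numbered 6 in the reported fit, 272 with DESeq2, 26 with no low count filter, 0 with the replicate block and 0 to 22 when 1 library was left out. Members past it numbered 0, and 3 with DESeq2. Members at an unadjusted p under 0.05 numbered 4 to 12 higher and 1 to 4 lower when 1 library was left out, and the median log2 fold change of the tested members ran from −0.0167 to 0.189. Deviations of same-numbered libraries of the 2 days had correlations of 0.119, −0.0548 and −0.0972, within the −0.168 to 0.183 of unlike-numbered ones. With 3 libraries a day these values cannot decide whether the numbers pair the libraries, and the labels do not say. With the replicate block 6 members were higher and 4 lower at an unadjusted p under 0.05. For the replicate block and the fits without a library, the matching shares of all tested genes were not computed. At 3 libraries per day a member that missed the threshold is not shown to be unchanged.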

Other observations

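Among guidance genes not described above, the receptor Robo2 had 40.3, 40.1 and 35.3 CPM at D14, against 32.4, 30.9 and 21.6 CPM at D0. The netrin and repulsive guidance molecule receptor Neo1 had 104, 122 and 125 CPM at D14, against 96.2, 95.7 and 82.2 CPM at D0. Both had ranges apart and an unadjusted p under 0.05 (0.0460 and 0.0438, edgeR quasi-likelihood test), with adjusted p values of 0.392 and 0.390. Mical1, an oxidoreductase that acts on actin downstream of plexins, had 52.8, 48.3 and 48.6 CPM at D14, against 65.0, 59.5 and 70.7 CPM at D0. These 3 genes were chosen after their values were seen.

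Within D14, replicate 1 was the highest of all libraries for 10 of the 46 tested members (21.7%, against 8.77% of all tested genes). Sema4c and Efna1 were among them, with Efna1 at 92.8 CPM in that library and 36.9 and 32.7 CPM in the other D14 libraries.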
